A study of Mus musculus with 6 samples.

Results

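Adenosine receptors and the carriers that move nucleosides and nucleotides across membranes were examined in mouse liver lacking NTPDase8, the ectonucleotidase encoded by Entpd8. The set comprised 10 genes named by symbol, of 45706 in the deposited table: 4 adenosine receptors (Adora1, Adora2a, Adora2b and Adora3), 3 equilibrative nucleoside carriers (Slc29a1, Slc29a2 and Slc29a3), 2 concentrative nucleoside carriers (Slc28a1 and Slc28a2) and 1 vesicular nucleotide carrier (Slc17a9). Each symbol matched 1 row of the table. Poly(A)-enriched liver RNA was sequenced in 3 libraries labelled Entpd8 knockout (KO 1 to KO 3) and 3 labelled wild type (WT 1 to WT 3). The labels give no strain, age, sex or construction of the knockout allele, and do not state whether the livers had undergone the ischemia that the series addresses. Nor do they say whether each library is a different mouse, and the p-values therefore reflect the spread between libraries, which may be technical.

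Extracellular ATP is degraded stepwise by NTPDases and CD73 to adenosine, which acts on 4 G protein-coupled receptors. The receptors encoded by Adora1 and Adora3 couple mainly to Gi and lower cAMP, whereas those of Adora2a and Adora2b couple to Gs and raise it. Adenosine signalling ends largely by uptake through equilibrative carriers, which pass nucleosides down their gradient, or concentrative carriers, which use the sodium gradient. In the liver the Gs-coupled pair is known for limiting inflammatory injury after ischemia, and Slc17a9 loads ATP into vesicles for release upstream of the whole system.

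The 3 genes called between the genotypes (adjusted p under 0.05, edgeR) were Adora1, Slc29a3 and Slc28a1. The DNA before their start sites is shown so that the windows can be compared. Each window holds the 250 bases before a RefSeq start in GRCm38.p6, on the gene's own strand, with matches to the GC box GGGCGG on either strand in capitals. The window of Adora1 is that of the farther upstream of its 2 listed starts, at chr1:134235458-134235707 on the minus strand. That of Slc29a3 lies at chr10:60752783-60753032 on the minus strand, and that of Slc28a1 at chr7:81114549-81114798 on the plus strand.
Adora1: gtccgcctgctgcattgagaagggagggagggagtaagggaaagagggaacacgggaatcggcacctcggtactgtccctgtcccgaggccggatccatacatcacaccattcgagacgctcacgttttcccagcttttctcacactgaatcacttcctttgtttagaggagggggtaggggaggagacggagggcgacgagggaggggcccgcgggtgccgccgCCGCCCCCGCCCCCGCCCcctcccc
Slc29a3: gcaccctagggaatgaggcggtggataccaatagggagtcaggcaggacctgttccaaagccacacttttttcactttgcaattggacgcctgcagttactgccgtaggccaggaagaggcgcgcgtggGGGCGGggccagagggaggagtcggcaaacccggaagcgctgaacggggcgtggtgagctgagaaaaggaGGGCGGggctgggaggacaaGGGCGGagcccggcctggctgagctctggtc
Slc28a1: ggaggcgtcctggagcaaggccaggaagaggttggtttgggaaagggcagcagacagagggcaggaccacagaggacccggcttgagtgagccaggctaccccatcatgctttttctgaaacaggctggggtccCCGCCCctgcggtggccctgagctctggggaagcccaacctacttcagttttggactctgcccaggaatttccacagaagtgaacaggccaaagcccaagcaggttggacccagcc

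The Adora1 window held 3 GC boxes and 19 CpG dinucleotides, the Slc29a3 window 3 and 15, and the Slc28a1 window 1 and 4. The median over 32851 promoter windows of the same length was 6 CpG dinucleotides, and 32.7% of them held at least 1 GC box. The cAMP response element TGACGTCA and its partial form TGACG, searched on both strands, matched none of the 3 windows and 1.55% and 17.8% of all windows. The AP-1 motif TGANTCA, searched in the same way, occurred once in the Adora1 window, in neither of the other two, and in 6.75% of all windows. The second Adora1 start had no GC box and 18 CpG dinucleotides in its window. A match or its lack describes only these letters. The window of Slc28a2, the other concentrative carrier, had no GC box and 0 CpG dinucleotides, as did that of Adora3. The Slc29a2 window held 0 GC boxes and 16 CpG dinucleotides, and the Adora2b window 6 and 22. The 8 Slc29a1 windows held 0 to 5 GC boxes and 2 to 24 CpG dinucleotides. None of these genes was called. RefSeq windows were matched for 8 of the 10 genes.

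Library totals ran from 40800058 to 46473531 counts in knockout and from 32768774 to 39929978 counts in wild-type livers. Entpd8 itself had 15, 29 and 52 counts in KO 1 to KO 3, against 1416, 876 and 2034 in WT 1 to WT 3. Hepatocyte markers (Alb, Apoa1, Ttr, Cps1 and Hnf4a) summed to 53212 to 70598 CPM (counts scaled to a common library size, with TMM factors) in knockout and 47701 to 63424 CPM in wild-type livers, with 0 of 5 called. The mitochondrially encoded share of counts was 10.9 ± 0.809% in knockout and 7.52 ± 0.924% in wild-type libraries (SD, n = 3 each). Among the wild-type libraries, WT 2 was the lowest for 5 of the 10 genes (Adora1, Adora2a, Slc29a1, Slc29a2 and Slc29a3).

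Across 14069 genes that passed a filter on low counts, 20.4% were called at an adjusted p under 0.05 in edgeR's quasi-likelihood test, 9.8% higher and 10.6% lower in knockout livers. Of the 10 genes, 9 passed the filter and 3 of these were called. Slc28a1 was higher, and Adora1 and Slc29a3 were lower in knockout livers. The groups did not overlap for these 3 and for Slc17a9, against 40.7% of all genes tested (18.7% higher and 22.0% lower in knockout livers). Slc28a1 passed the filter only through its knockout counts, so its presence among the called genes is no support for the set as a whole. In bulk liver, fewer cells of a type and less RNA per cell cannot be told apart.

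**Figure D1:**
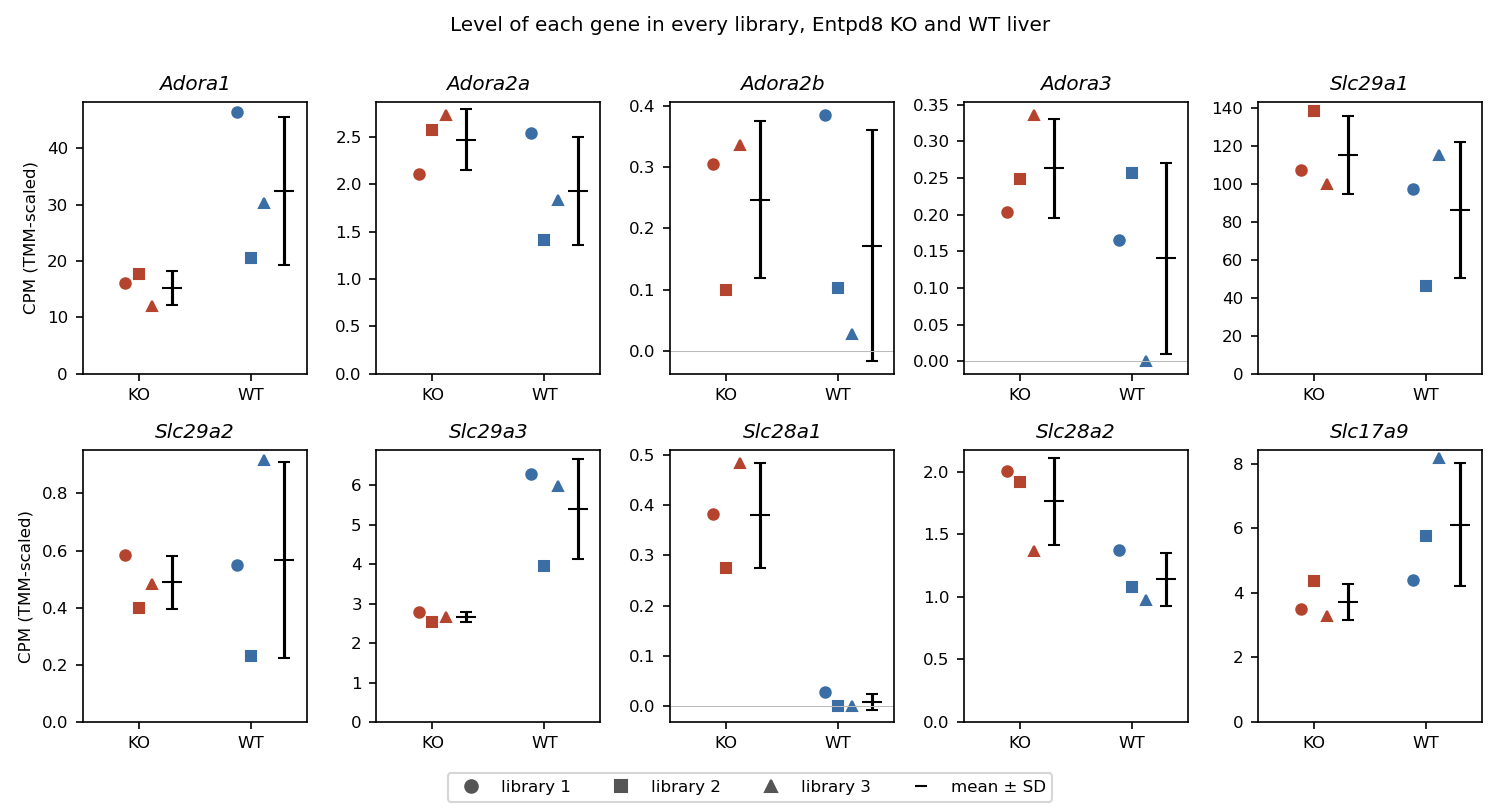
Level of each of the 10 genes in every library, in CPM on linear axes with a scale of its own for each gene, with knockout libraries at the left of each panel and wild-type libraries at the right. Marker shape gives the library number and the black bar the mean ± SD (n = 3). Knockout and wild-type values do not overlap for Adora1, Slc29a3, Slc28a1 and Slc17a9.

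The A1 receptor was the main adenosine receptor transcript in all 6 libraries and fell to about 0.470 of its wild-type level in knockout livers. Adora1 (ENSMUSG00000042429, chromosome 1, 134199223 to 134235431, minus strand, GRCm38) had 16.1, 17.7 and 11.9 CPM in KO 1, KO 2 and KO 3, against 46.5, 20.5 and 30.3 CPM in WT 1, WT 2 and WT 3. The means were 15.2 ± 2.98 CPM in knockout and 32.4 ± 13.1 CPM in wild-type livers (SD, n = 3 each). The lowest wild-type library, WT 2, lay just above the highest knockout library, KO 2, and the wild-type libraries spread more widely than the knockout ones. The log2 fold change was -1.09 ± 0.30 (SE, adjusted p = 0.0398, edgeR). The call rested on all of the libraries other than WT 2: the adjusted p in edgeR was 0.121 without KO 1, 0.0817 without KO 2, 0.115 without KO 3, 0.0777 without WT 1 and 0.0674 without WT 3. Without WT 1 the log2 fold change was -0.74, and with no low-count filter the adjusted p was 0.0811. Part of the exons of Adora1 (20.1%) overlaps Mybph on the other strand, but Mybph had only 2 counts over all libraries.

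Adora2a, whose Gs-coupled receptor is found on leukocytes and endothelium, was not separated between the genotypes. Adora2a (ENSMUSG00000020178, chromosome 10, 75316877 to 75334784) had 2.11, 2.57 and 2.73 CPM in KO 1 to KO 3, against 2.53, 1.41 and 1.83 CPM in WT 1 to WT 3. WT 1 lay among the knockout values and the other two wild-type libraries lay below them. Its log2 fold change of 0.36 ± 0.28 (SE) did not pass (adjusted p = 0.394, edgeR), and was 0.60 without WT 1 and 0.18 without WT 2.

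The other two receptors were close to the limit of detection at this depth. Adora2b (ENSMUSG00000018500, chromosome 11, 62248984 to 62266453), the low-affinity Gs-coupled A2B receptor, had 12, 4 and 16 counts in KO 1 to KO 3, against 14, 4 and 1 counts in WT 1 to WT 3. The groups overlapped, with a log2 fold change of 0.53 ± 0.80 (SE; adjusted p = 0.674 in edgeR). Single libraries set that value, which was 1.86 without WT 1 and 0.04 without WT 3, and it passed in neither case (adjusted p of 0.179 and 0.980, edgeR). Adora3 (ENSMUSG00000000562, chromosome 3, 105870858 to 105908926), which encodes the Gi-coupled A3 receptor known from rodent mast cells, had 8, 10 and 16 counts in KO 1 to KO 3, against 6, 10 and 0 counts in WT 1 to WT 3. Adora3 did not pass the low-count filter. Fitted with no filter, it gave 0.88 ± 0.75 in log2 units (SE; adjusted p = 0.508, edgeR). Adora3 shares 20.9% of its exon bases with Tmigd3 on the same strand, which had 2 counts in all, and the sum of the pair gave 0.84 ± 0.63 (adjusted p = 0.376). Of 8 mast cell and basophil markers, Cma1 and Tpsb2 were at 0 in all 6 libraries and Cpa3, Mcpt4, Ms4a2 and Mcpt8 were at or near 0. The 8 summed to 14.7 to 19.5 CPM in knockout and 10.1 to 15.5 CPM in wild-type livers, nearly all of it from Hdc and Kit, which other cells also express and which were not called.

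Set against transcript length, Adora1 made up a smaller part of the receptor transcripts in knockout livers. In TPM (counts divided by exon length and scaled to a common total per library), Adora1 was 75.3%, 76.2% and 63.9% of the 4 receptors summed in KO 1 to KO 3, against 88.1%, 85.8% and 89.5% in WT 1 to WT 3. Adora2a took 18.7%, 20.8% and 27.6% of that sum in KO 1 to KO 3, against 9.08%, 11.2% and 10.2% in WT 1 to WT 3. The TPM of Adora1 was 4.03, 3.65 and 2.31 times that of Adora2a in KO 1 to KO 3, against 9.71, 7.70 and 8.74 times in WT 1 to WT 3. These ratios are formed within a library, so they do not depend on how libraries were scaled, and the 2 groups of 3 did not overlap. The 4 receptors summed to 7.61 ± 0.346 TPM in knockout and 15.1 ± 6.30 TPM in wild-type livers (SD, n = 3 each), with WT 2, at 9.03 TPM, the wild-type library nearest to the knockout ones.

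**Figure D2:**
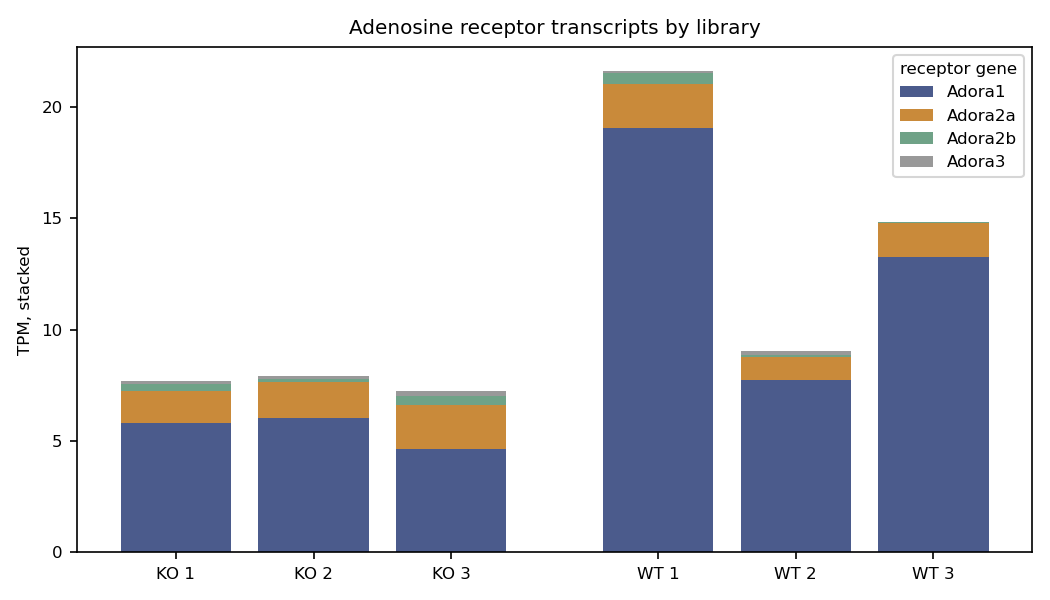
Adenosine receptor transcripts in each library, in TPM stacked from Adora1 at the base to Adora3 at the top, with KO 1 to KO 3 at the left and WT 1 to WT 3 at the right. The knockout bars reach 7.23 to 7.91 TPM and the wild-type bars 9.03 to 21.6 TPM, and the Adora1 segment accounts for most of that gap.

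Slc29a1, which encodes the plasma membrane carrier ENT1, was the most abundant of the 10 genes in both genotypes, and its level did not separate them. Slc29a1 (ENSMUSG00000023942, chromosome 17, 45585200 to 45599606) had 107, 138 and 99.8 CPM in KO 1, KO 2 and KO 3, against 97.2, 46.4 and 115 CPM in WT 1, WT 2 and WT 3. WT 2 was the lowest library, while WT 1 and WT 3 lay within or next to the knockout range. The log2 fold change was 0.42 ± 0.32 (SE, adjusted p = 0.388, edgeR), and 0.11 without WT 2 and 0.68 without WT 3. Over 10390 other genes at a mean log2 CPM of at least 1, the profiles nearest to that of Slc29a1 across the 6 libraries were those of Fmn1, Chac2 and Fahd1. The root mean square difference of their centred log2 CPM from that of Slc29a1 was 0.063, 0.084 and 0.085. Each of the 3 was lowest in WT 2, at -1.14, -0.94 and -1.18 from its own mean on the log2 scale.

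Slc29a2 (ENSMUSG00000024891, chromosome 19, 5023860 to 5031972) encodes ENT2, a second plasma membrane carrier that also passes nucleobases. It had 23, 16 and 23 counts in KO 1 to KO 3, against 20, 9 and 33 counts in WT 1 to WT 3. The knockout libraries lay inside the wild-type range, and the log2 fold change was -0.20 ± 0.50 (SE, adjusted p = 0.805, edgeR). It changed sign, to 0.32, without WT 3. Per length, Slc29a1 exceeded Slc29a2 by 138, 262 and 155 times in KO 1 to KO 3, against 133, 151 and 94.9 times in WT 1 to WT 3, and these ranges overlapped.

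Slc29a3 encodes ENT3, the equilibrative carrier of lysosomes and other inner membranes, whose loss in humans and mice leads to an accumulation of macrophages. It fell to about 0.493 of the wild-type level in knockout livers. Slc29a3 (ENSMUSG00000020100, chromosome 10, 60712072 to 60752794, minus strand) had 2.80, 2.54 and 2.65 CPM in KO 1, KO 2 and KO 3, against 6.28, 3.95 and 5.997 CPM in WT 1, WT 2 and WT 3. The knockout libraries lay close together, with an SD of 4.84% of their mean, and all of them lay below WT 2, the lowest wild-type library. The log2 fold change was -1.02 ± 0.23 (SE, adjusted p = 0.0198, edgeR). It ranged from -1.20 to -0.90 over the alternatives run. The call did not hold without KO 1 (adjusted p = 0.0777), KO 2 (0.0613), KO 3 (0.0528), WT 1 (0.0606) or WT 3 (0.0505), and it held without WT 2 (0.00776, edgeR).

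Most macrophage markers were lower in the same libraries. Kupffer cell and macrophage markers summed to 55.6 to 66.4 CPM in knockout and 96.2 to 221 CPM in wild-type livers, and 4 of 8 (Clec4f, Vsig4, Cd5l and Csf1r) were called lower, with none called higher. Timd4, Marco and Adgre1 had log2 fold changes of -0.76, -1.62 and -1.06 and did not pass (adjusted p of 0.234, 0.0615 and 0.0610, edgeR). Cd68 was not lower, at a log2 fold change of 0.07 (adjusted p = 0.763, edgeR). The part of these cells in the lower Slc29a3 level was not tested. Sinusoidal endothelial markers summed to 109 to 154 CPM in knockout and 147 to 183 CPM in wild-type livers, with 1 of 7 (Stab1) called lower.

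The concentrative carriers were both low in these livers, and nearly all counts of Slc28a1 came from knockout libraries. Slc28a1 (ENSMUSG00000025726, chromosome 7, 81114799 to 81170416, plus strand) encodes CNT1, which takes up pyrimidine nucleosides with sodium. It had 15, 11 and 23 counts in KO 1, KO 2 and KO 3, against 1, 0 and 0 counts in WT 1, WT 2 and WT 3. Every knockout library had more than 10 counts and the wild-type libraries together held 1. Over the summed counts, 49 in knockout and 1 in wild type, the ratio was 43.0, with an exact 95% interval of 7.36 to 1731 that covers counting error only. The fitted log2 fold change was 4.99 ± 0.81 (SE, adjusted p = 0.00785, edgeR). It was 6.96 without WT 1, which leaves only wild-type libraries at 0, so the fitted size depends on the treatment of zeros. The gene passed under all alternatives in which it was tested (adjusted p at most 0.0352), and a filter at 1 CPM removed it. Even in knockout livers its level was 0.380 ± 0.105 CPM (SD, n = 3).

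Some markers of several other cell types were also called higher in knockout livers. Of 4 biliary markers tested of 5 listed, Krt19 and Epcam were called higher, and Sox9 and Krt7 were not (adjusted p of 0.367 and 0.141, edgeR). The 5 summed to 41.1 to 57.9 CPM in knockout and 17.6 to 42.5 CPM in wild-type livers, ranges that overlap, and most of each sum was Sox9. Of 4 erythroid markers tested of 5, Alas2, Hba-a1 and Hbb-bs were called higher, and the 5 summed to 831 to 1104 CPM in knockout and 269 to 379 CPM in wild-type livers, with no overlap. Of 2 B and plasma cell markers tested of 5, Jchain was called higher, at a log2 fold change of 3.99 (adjusted p = 0.000696, edgeR), and the 5 summed to 7.02 to 10.9 CPM in knockout and 0.615 to 1.43 CPM in wild-type livers. Of 5 T and NK cell markers tested of 7, Cd3g was called higher. It had 0.138, 0.179 and 0.0833 CPM in WT 1 to WT 3 and passed the low-count filter only through its knockout counts. Cd3e, Trac, Nkg7 and Klrb1c were not called (adjusted p of 0.0529, 0.0796, 0.0898 and 0.921, edgeR). The 7 summed to 2.27 to 3.996 CPM in knockout and 1.11 to 1.29 CPM in wild-type livers. Cd8a, which was not tested, gave 0.992, 0.0997 and 1.28 CPM of these sums in KO 1 to KO 3. The part of biliary or any of these other cells in the Slc28a1 counts was not tested.

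Slc28a2 (ENSMUSG00000027219, chromosome 2, 122426477 to 122461137) encodes CNT2, which favours purine nucleosides such as adenosine. It had 2.01, 1.92 and 1.37 CPM in KO 1, KO 2 and KO 3, against 1.38, 1.08 and 0.972 CPM in WT 1, WT 2 and WT 3. KO 3 lay just below WT 1, so the groups overlapped by that 1 pair of libraries. The log2 fold change of 0.63 ± 0.29 (SE) did not pass (adjusted p = 0.159, edgeR). The neighbouring copy Slc28a2b, listed in the table's annotation as Gm14085, had 0 counts in all knockout libraries and 3 in wild-type libraries, and the sum of the pair gave a log2 fold change of 0.59 ± 0.29 (adjusted p = 0.179, edgeR).

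Slc17a9 encodes the vesicular nucleotide carrier, which hepatocytes use to store ATP in vesicles. Slc17a9 (ENSMUSG00000023393, chromosome 2, 180725263 to 180742280) had 3.51, 4.36 and 3.28 CPM in KO 1, KO 2 and KO 3, against 4.41, 5.77 and 8.16 CPM in WT 1, WT 2 and WT 3. All wild-type libraries lay above all knockout ones, with KO 2 and WT 1 nearly level. The log2 fold change was -0.72 ± 0.26 (SE) and did not pass (adjusted p = 0.0829, edgeR). Without WT 3, the highest library, it was -0.46.

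**Figure D3:**
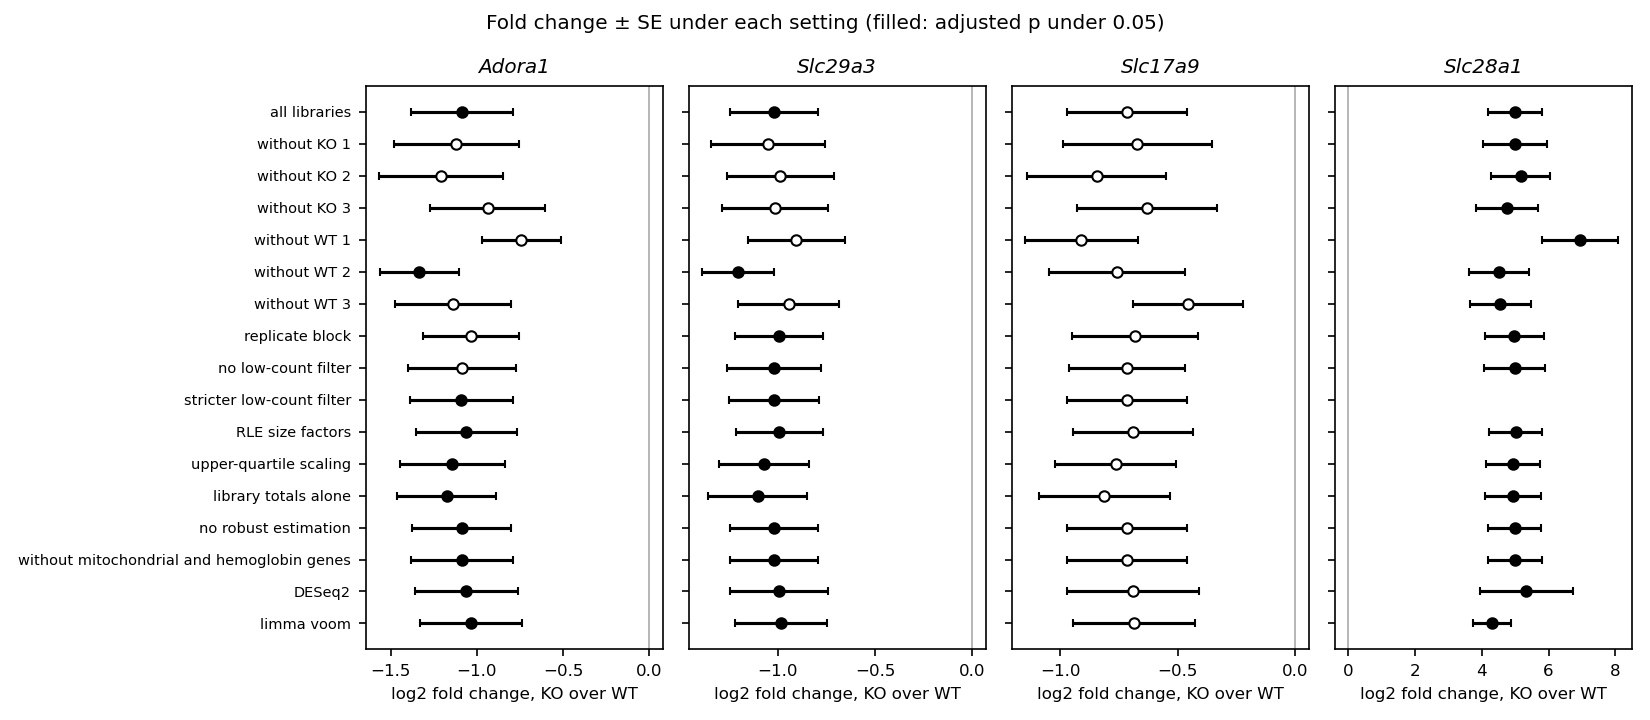
Log2 fold change, knockout over wild type, of the 4 genes whose groups did not overlap, under each setting listed at the left, with bars for the SE. Filled points have an adjusted p under 0.05. Adora1 and Slc29a3 stay negative throughout but cross the threshold when single libraries are left out, Slc17a9 has no filled point, and all points of Slc28a1 are filled.

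Ordered by mean TPM over the 6 libraries, Slc29a1 stood first at 59.8 ± 7.05 TPM in knockout and 51.9 ± 24.3 TPM in wild-type livers (SD, n = 3 each). Adora1 followed at 5.48 ± 0.751 TPM in knockout and 13.4 ± 5.65 TPM in wild-type livers, and Slc17a9 at 2.42 ± 0.224 TPM in knockout and 4.56 ± 1.69 TPM in wild-type livers. Adora2a had 1.69 ± 0.283 TPM in knockout and 1.495 ± 0.478 TPM in wild-type livers. These 4 genes kept this order in each of the 6 libraries. Slc29a3, the next by its mean, exceeded Adora2a in all 3 wild-type libraries and in 0 of the 3 knockout libraries, at 0.958 ± 0.0879 TPM in knockout and 2.21 ± 0.636 TPM in wild-type livers. Slc28a2 averaged 0.873 ± 0.136 TPM in knockout and 0.639 ± 0.118 TPM in wild-type livers, and its knockout range overlapped that of Slc29a3. Slc29a2, Adora2b, Slc28a1 and Adora3 each averaged under 0.5 TPM in both genotypes, and most neighbours among them overlapped.

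**Figure D4:**
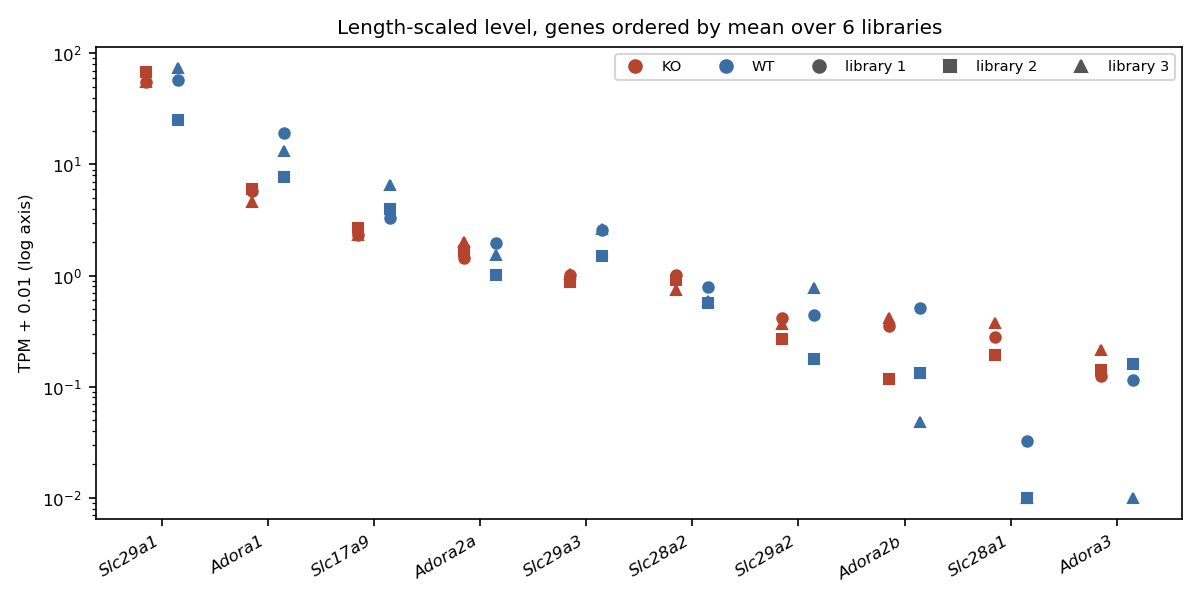
Length-scaled level of each gene in every library, as TPM + 0.01 on a log axis, with genes ordered by their mean over the 6 libraries and knockout points left of wild-type points. Slc29a1 lies above all others, and the points of Slc28a1 in WT 2 and WT 3 and of Adora3 in WT 3 mark counts of 0.

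Most of the related carriers tested were not called. Of 13 listed, 8 were tested, 2 were called higher and 0 lower (2 of 8 called, against 20.4% of all genes), with a median log2 fold change of 0.30 against -0.02 over all genes tested. Slc17a8, which encodes the vesicular glutamate carrier VGLUT3, had 11.5, 6.95 and 17.6 CPM in KO 1 to KO 3, against 2.95, 3.07 and 4.69 CPM in WT 1 to WT 3. This log2 rise of 1.75 ± 0.35 had an adjusted p of 0.0159 in edgeR, but did not pass without KO 1 or WT 1 (adjusted p at most 0.0576). Slc17a4, an anion carrier of the same family, rose by 1.07 ± 0.26 (adjusted p = 0.0284) and did not pass without KO 1, KO 2, KO 3 or WT 3 (adjusted p at most 0.0923, edgeR). Slc43a3, a carrier of purine nucleobases, had a log2 fold change of 0.30 ± 0.19 and did not pass (adjusted p = 0.304). The log2 fold changes of Slc17a1, Slc17a2, Slc17a3, Slc17a5 and Slc22a7 lay between -0.15 and 0.39, and none passed. Slc28a3, which encodes the broad-specificity concentrative carrier CNT3, had 3 counts in each knockout library and 0 in each wild-type library. Slc29a4 had 4 counts in knockout and 0 in wild-type livers in all, Slc17a7 had 6 in knockout and 2 in wild-type livers, and Slc17a6 was at 0.

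Downstream of the receptors, most G protein, adenylyl cyclase and cAMP effector genes were not called. Of 43 tested, 1 was higher and 4 were lower, or 11.6% called against 20.4% of all genes, with a median log2 fold change of -0.07. The phosphodiesterase Pde4b, which degrades cAMP, had 85.2, 45.7 and 120 CPM in KO 1 to KO 3, against 10.4, 13.3 and 8.36 CPM in WT 1 to WT 3. That is a log2 fold change of 2.97 ± 0.36 (SE), with an adjusted p of 0.00451 in edgeR. The cAMP-responsive transcription factor Creb1 fell by 0.75 ± 0.16 in log2 units (adjusted p = 0.0166), the receptor kinase Grk3 by 1.28 ± 0.30 (adjusted p = 0.0240) and the Gq subunit Gnaq by 0.47 ± 0.11 (adjusted p = 0.0246). Pde7b, named after its value was seen, fell by 0.78 ± 0.21. Creb1 did not pass without KO 1, Gnaq without KO 1, KO 2 or WT 1, Grk3 without KO 1, KO 3, WT 1 or WT 3, and Pde7b without KO 1, KO 2, WT 1, WT 2 or WT 3 (the highest adjusted p was 0.167, edgeR).

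Of 16 genes that CREB, the transcription factor activated by cAMP, is known to drive, 8 were higher and 1 was lower, or 56.2% called against 20.4% of all genes, with a median log2 fold change of 1.05. The list was chosen with earlier results of these data known, so this share does not test CREB targets as a set. Fos had 168, 237 and 161 CPM in KO 1 to KO 3, against 25.3, 33.1 and 13.8 CPM in WT 1 to WT 3, a log2 rise of 2.97 ± 0.33 (adjusted p = 0.00325, edgeR). The phosphatase Dusp1 rose by 2.55 ± 0.25 (adjusted p = 0.00187) and the nuclear receptor Nr4a1 by 2.94 ± 0.38 (adjusted p = 0.00531, edgeR). Pde4b is also on this list. Nr4a2, Nr4a3, Sik1 and G6pc were the others called higher. Pck1, which encodes the gluconeogenic enzyme PEPCK, was called lower at -0.74 ± 0.22. These 5 genes were named after their values were seen. Nr4a2 had 6, 6 and 7 counts in WT 1 to WT 3, and Nr4a3 had 17, 11 and 7. Both passed the low-count filter only through their knockout counts, so their calls are no support for the list as a whole. Pck1 and G6pc, both classical cAMP-responsive genes of gluconeogenesis, thus differed in sign. Their calls did not hold without KO 1, KO 2, KO 3 or WT 3, nor that of Pck1 without WT 1, nor that of Sik1 without KO 1, KO 2 or KO 3 (adjusted p at most 0.178, edgeR). Pck1 did not pass with RLE size factors, and G6pc did not with upper-quartile scaling, library totals or no low-count filter. Fos, Dusp1 and the Nr4a genes also respond to many stimuli other than cAMP, and the part of cAMP in the levels of this list was not tested.

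Of the enzymes that form extracellular adenosine, 11 were tested, 2 were higher and 1 was lower (27.3% called against 20.4% of all genes), with a median log2 fold change of 0.42. The lower one was Entpd8, the deleted gene. Its call follows from the knockout itself, so the 27.3% cannot be read as an excess among these enzymes. Alkaline phosphatase Alpl, which can take nucleotides to adenosine, had 18.0, 15.1 and 23.6 CPM in KO 1 to KO 3, against 8.24, 4.56 and 8.61 CPM in WT 1 to WT 3. The log2 rise was 1.41 ± 0.27 (SE), with an adjusted p of 0.0132 in edgeR. The ectonucleotidase Entpd3 averaged 0.930 CPM in knockout and 0.304 CPM in wild-type livers and rose by 1.60 ± 0.47 (adjusted p = 0.0457). It did not pass with upper-quartile scaling or with any 1 library left out (adjusted p at most 0.137, edgeR). The nucleotide pyrophosphatase Enpp3 (0.82 ± 0.35, adjusted p = 0.140) did not pass.

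Of 31 tested genes listed for the salvage or breakdown of nucleosides inside the cell, 35.5% were called against 20.4% of all genes. Their median log2 fold change was 0.29, and 9 were called higher and 2 lower in knockout livers. These counts were 3 higher and 0 lower without KO 1, 4 and 1 without KO 2, and 5 and 1 without KO 3. Dihydropyrimidinase Dpys had 164, 172 and 174 CPM in KO 1 to KO 3, against 75.9, 78.7 and 79.8 CPM in WT 1 to WT 3, a log2 rise of 1.12 ± 0.11 (adjusted p = 0.00162, edgeR). The pyrimidine nucleotidase Nt5c3 rose by 1.10 ± 0.13 (adjusted p = 0.00287), thymidine phosphorylase Tymp by 0.95 ± 0.13 (adjusted p = 0.00534) and uridine phosphorylase Upp2 by 1.71 ± 0.34 (adjusted p = 0.0169, edgeR). Of these, Upp2 did not pass without KO 1, KO 2 or WT 1 or with no low-count filter (adjusted p at most 0.0732), and the other 3 passed with each library left out. Named after their values were seen, Upp1, Ampd3, Nt5c2, Upb1 and Hprt were also called higher, and Ahcyl2 and Dguok lower. None of these 7 passed without KO 1, and each lost its call without at least 1 other library (adjusted p at most 0.176, edgeR). Among the enzymes that act on adenosine itself, adenosine kinase Adk (0.18 ± 0.14) and adenosine deaminase Ada (0.56 ± 0.30) did not pass (adjusted p of 0.376 and 0.209, edgeR), also named after their values were seen.

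**Figure D5:**
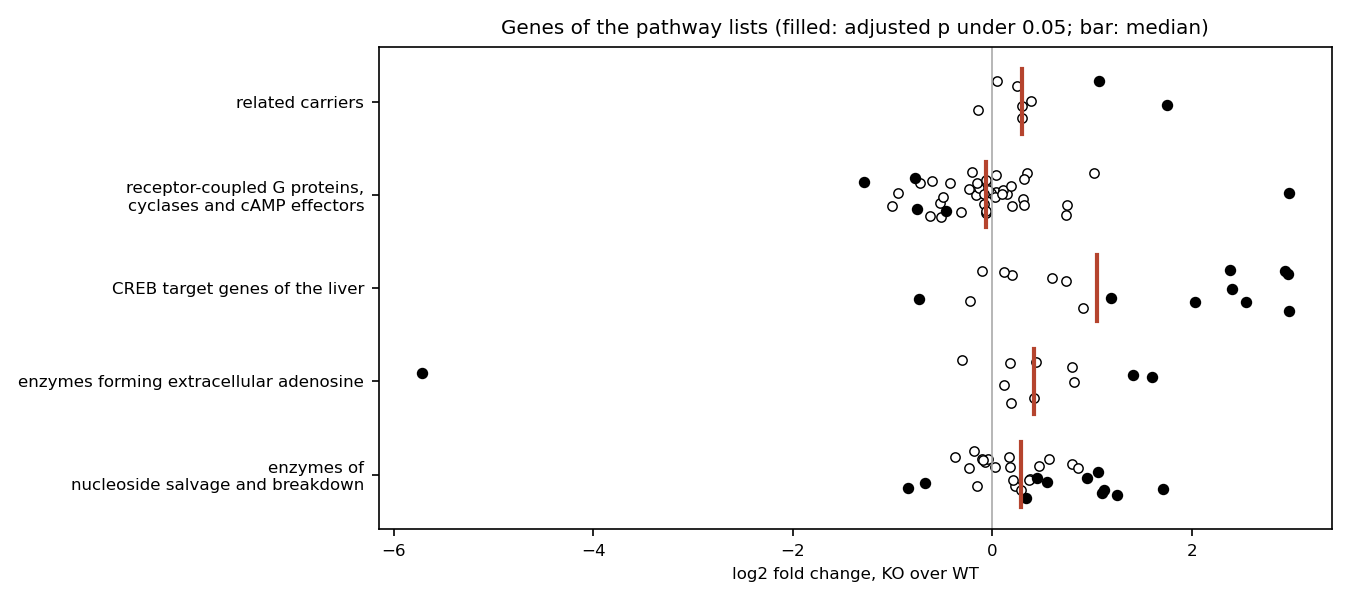
Log2 fold change, knockout over wild type, of every tested gene in the 5 lists of related genes, 1 point per gene and spread vertically only to separate points. Filled points have an adjusted p under 0.05 and the bar is the list's median, from -0.07 for receptor-coupled genes to 1.05 for CREB target genes.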

How the data were processed

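Per the labels' protocols, liver RNA was extracted with an RNeasy kit, enriched for poly(A) RNA and made into libraries with a NEBNext Ultra II kit. Whether strand was kept is not stated. The tools Trim Galore, STAR and Salmon, and GRCm38 as build, come from what is listed per the submitters' processing notes, with no version, order or annotation. The deposited table holds expected counts per gene, not scaled to a common total. Such estimates share ambiguous reads between similar genes, which makes near-identical copies uncertain. Samples were grouped by title, and all 6 libraries were used.

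Counts were rounded to whole numbers, filtered with filterByExpr and scaled by TMM. Genotype was tested two-sided with edgeR 4.0.16 (robust glmQLFit, R 4.3.3), with Benjamini-Hochberg adjustment over 14069 genes and a threshold of 0.05. Each SE was taken as the absolute log2 fold change over the root of its F statistic. Symbols matched 45143 of 45706 genes. Positions and exon lengths came from GENCODE M21 (GRCm38), and TPM uses the union of exons. Lists held 131 distinct symbols, and those not matched are not analysed here. All 10 genes are named, and per list the 4 lowest p and every related carrier. The genes and lists were chosen with earlier results of these data known, so the share of a list called is not a test of that list. The fit was also run on data simulated with its own estimates of spread, which does not check the spread between libraries. Alternatives tried were scaling by RLE, by upper quartile or by library totals, no filter, a filter at 1 CPM in 3 libraries, no robust estimation, DESeq2 1.42.0, limma voom 3.58.1, no mitochondrial or hemoglobin genes, the replicate number as a block, a threshold of 0.1, leaving out each library, summed neighbours and another length. No pair of libraries within a group agreed within counting noise (variance 34.5 to 138 times as large). Library totals of 32768774 to 46473531 counts set the precision.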

Additional observations from a re-analysis of the deposited data

How the results depend on the processing

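All 9 tested genes of the set kept the sign of their log2 fold change in every alternative run, except Slc29a2, which was not called and was above 0 in 1 of 16. Genes called higher and lower in knockout livers numbered 1379 and 1492 with all libraries. Leaving out 1 library gave 385 to 1390 higher and 218 to 1690 lower, the fewest without KO 1 (385 higher and 218 lower). Within the set, 1 gene was called higher and 2 lower. Leaving out 1 library gave 1 higher each time and 0 to 2 lower, the 2 lower calls holding only without WT 2. A stricter filter removed Slc28a1 and left 0 higher, and no low-count filter left 1 lower (Slc29a3). For the pathway lists, with 21 distinct genes higher and 8 lower, leaving out 1 library gave 10 to 20 higher and 1 to 6 lower. A threshold of 0.1 gave 2249 genes lower and added Slc17a9 (3 of the set lower). Using the longest transcript for length, 8 of 10 genes kept their rank, Slc28a1 and Adora3 exchanging places.

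Whether the replicate numbers pair the samples cannot be settled with 3 libraries per group. Deviations of same-numbered libraries from their group means correlated at -0.076, 0.013 and -0.085 for numbers 1 to 3. With the replicate block, 807 genes were higher and 661 lower, 1 gene of the set was lower (Slc29a3), Adora1 had an adjusted p of 0.0710 in edgeR, and 15 list genes were higher and 1 lower. Genes under about 20 counts per library (Adora2b, Adora3, Slc28a1) are limited by depth.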
